A study of Homo sapiens with 6 samples.

Results

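Iron drives the peroxidation of polyunsaturated membrane lipids, and cell death by this route is called ferroptosis. Some enzymes supply the lipids that peroxidize and others form the defence against it. The messenger RNAs of 8 genes with these roles were followed here during iron chelation. ACSL4 and LPCAT3 load polyunsaturated fatty acids into phospholipids and so act as drivers. SLC7A11 and GPX4 form the cystine, glutathione and glutathione peroxidase route of defence. AIFM2 (the ferroptosis suppressor FSP1), VKORC1L1, GCH1 and DHODH belong to defences that regenerate or make radical-trapping molecules outside that route. The 8 genes were found by symbol among 62252 genes, to which the quantified transcripts were assigned through GENCODE release 44. All 8 had a total count above 10, the minimum for testing, and all 8 were among the 24542 genes that received an adjusted P-value. The rule used gene symbols and no measured value.

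The cells were K562, a human erythroid leukemia line that grows in suspension. In the Chelator group they received 21H7, a cell-permeable iron chelator, at 10 µM overnight. In the DMSO group they received an equal volume of the solvent. Each group held 3 libraries, described as biological replicates, of polyadenylated RNA sequenced as paired ends. Every library came from the same single line under the same medium, so the comparison describes this line at this dose and at a single time. Total estimated counts were 78615500 to 90383641 in DMSO and 85449857 to 101094957 in Chelator, and the mitochondrial share of counts was 4.42 to 7.07% over the 6 libraries. The fragment length read from the effective lengths of transcripts without counts was 252 to 264 bases in DMSO and 200 to 218 bases in Chelator, without overlap between the groups. The treatment and this length cannot be told apart here. Its part in the results was not tested, although the test used each library's own effective lengths. All 10 erythroid markers were detected, of which 4 rose and 4 fell, with a median log2 fold change of 0.01. The globins HBG1, HBG2, HBZ and HBE1 rose, and the regulators KLF1 (-0.72), LMO2 (-0.72) and TAL1 (-0.28) and the receptor EPOR (-0.44) fell. The 10 genes had a summed level of 12464 to 13808 TPM, a length-normalized unit, in DMSO and 17551 to 18740 TPM in Chelator, and HBG2 alone averaged 6130 TPM over the 6 libraries. Markers of other cell types summed to 64.6 to 71.4 TPM in DMSO and 50.6 to 55.7 TPM in Chelator. EPCAM, at a mean of 56.7 TPM, made up most of that sum and CDH5 was at 0 in all 6 libraries. In bulk RNA, fewer cells of a type and less RNA per cell cannot be told apart.

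Peroxidation begins with polyunsaturated acyl chains in membrane phospholipids. ACSL4 activates arachidonic and related fatty acids, and LPCAT3 inserts them into lysophospholipids. GPX4, a selenium enzyme, reduces the lipid hydroperoxides that result and uses glutathione to do so. SLC7A11 imports the cystine from which glutathione is made. AIFM2 reduces coenzyme Q at membranes and can also reduce vitamin K. VKORC1L1 reduces vitamin K and its epoxide, GCH1 makes the tetrahydrobiopterin precursor, and DHODH reduces coenzyme Q in mitochondria while it makes pyrimidines.

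Iron chelation altered 7 of the 8 transcripts, in both directions. ACSL4, SLC7A11, GPX4 and GCH1 rose and LPCAT3, VKORC1L1 and DHODH fell, at an adjusted P-value under 0.05 in the Wald test of DESeq2 over all genes. Of all genes with an adjusted P-value, 19.5% rose and 18.3% fell at the same threshold. In 7 of the 8 genes the normalized counts of the groups did not overlap, against 49.2% of all genes. Of the 24542 genes behind these shares, 10341 averaged 500 or more normalized counts, whereas each member averaged 1027.5 or more. Shares among genes of like level are not given here, so the members cannot be called unusual on this basis. Only DHODH also changed by more than 1 on the log2 scale, the size called here. Among all genes, 8.18% were called higher and 2.6% were called lower. The median log2 fold change was 0.147 over the 8 members and 0.0158 over all genes with an adjusted P-value. The members thus moved in both directions.

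**Figure D1:**
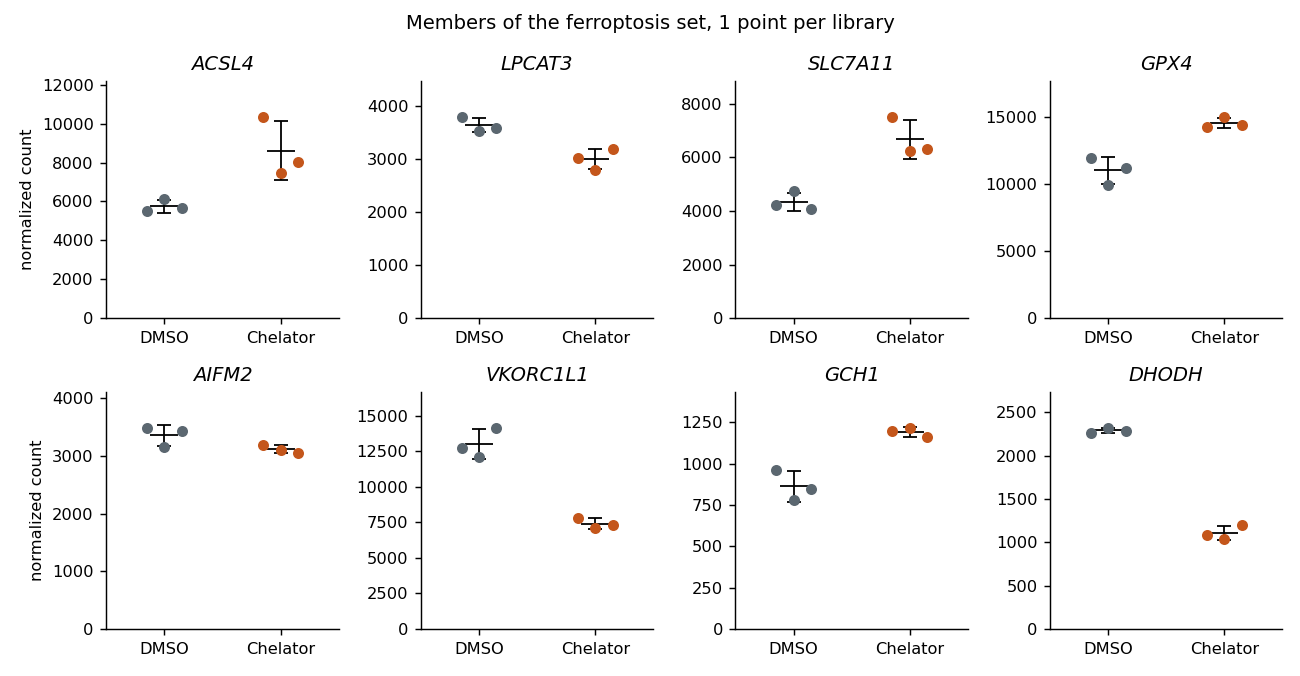
Normalized counts of the 8 members (vertical axis, starting at 0) in the 3 DMSO and 3 Chelator libraries, with 1 point per library and the mean and SD in black. The groups were apart for every member other than AIFM2, with ACSL4, SLC7A11, GPX4 and GCH1 higher and LPCAT3, VKORC1L1 and DHODH lower in Chelator.

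The drivers moved apart from each other. ACSL4 (ENSG00000068366.21, chromosome X, 109624244 to 109733403, minus strand, GRCh38) had normalized counts of 5489, 6104 and 5660 in DMSO and 10333, 7443 and 8040 in Chelator. Every Chelator library was above every DMSO library, and Chelator replicate 1 was the highest. The log2 fold change was 0.58 (SE 0.113, adjusted P = 1.84e-06, DESeq2). It was 0.43 without Chelator replicate 1, still past the threshold, and without the length offset it was 0.46 and no longer passed (adjusted P = 0.0865). LPCAT3 (ENSG00000111684.11, chromosome 12, 6976185 to 7018477, minus strand) had normalized counts of 3785, 3532 and 3589 in DMSO and 3018, 2793 and 3184 in Chelator. It fell with a log2 fold change of -0.28 (SE 0.0835, adjusted P = 0.00319). On log2(TPM + 0.1) with limma the value was -0.25 and did not pass (adjusted P = 0.0515), and on protein-coding transcripts alone it was -0.52 and passed (adjusted P = 7.70e-10).

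The ratio of the 2 driver transcripts within a library does not depend on the scaling between libraries. ACSL4 TPM over LPCAT3 TPM was 0.735, 0.876 and 0.8 in DMSO and 1.74, 1.35 and 1.28 in Chelator. The ratio was thus below 1 in every DMSO library and above 1 in every Chelator library. This ratio and those that follow were chosen after the values were seen, and no test was run on them.

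LPCAT3 counts carry an uncertainty of their own. EMG1, a ribosome assembly factor on the opposite strand, overlaps 66.0% of the exonic bases of LPCAT3. Of the 31-base sequences of the main transcript LPCAT3-201, 59.5% also occur in EMG1 when read on the reverse strand. Whether the quantification used strand was not given in the sources used here, and without strand the reads of this stretch cannot be told apart. EMG1 itself had normalized counts of 3051, 2125 and 2924 in DMSO and 3077, 3383 and 3220 in Chelator, a log2 fold change of 0.26 (adjusted P = 0.0936) that did not pass. Its transcripts went different ways. The long EMG1-202, of 4873 bases, was at 8.48, 9.29 and 8.16 TPM in DMSO and lower in every Chelator library, at 6.11, 5.85 and 6.13 TPM. The short EMG1-201, of 616 bases, was at 7.25, 3.35 and 7.2 TPM in DMSO and higher in every Chelator library, at 10.4, 12.7 and 11.4 TPM. Smaller overlaps on the opposite strand were found for AIFM2, with MACROH2A2 over 19.2% of its exonic bases, and for SLC7A11, with SLC7A11-AS1 over 9.0%. Those genes had means of 18.2 and 64.3 counts, low beside the members.

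Among 20 further genes of polyunsaturated lipid supply and peroxidation, 17 were tested. At the threshold 4 rose and 6 fell, with a median log2 fold change of -0.03. The desaturase FADS2 fell with a log2 fold change of -0.59 and the ether lipid enzyme AGPS with -0.58, both adjusted P-values being under the threshold, as did FADS1 with -0.22. SAT1, the rate-limiting enzyme of polyamine breakdown, which is linked to lipoxygenase activity, was the single gene of this list that was called. Its normalized counts were 923, 739 and 904 in DMSO and 2662, 2816 and 3038 in Chelator, a log2 fold change of 1.73 (SE 0.11). Of the lipoxygenases, ALOX12 rose from a low level of 89.3 ± 4.11 to 169 ± 24.1 normalized counts (SD, n = 3). ALOX15 had a total of 6 counts over the 6 libraries and was not tested.

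The transcripts of the glutathione route rose at the importer and at the peroxidase. SLC7A11 (ENSG00000151012.13, chromosome 4, 138164097 to 138242349, minus strand) had normalized counts of 4217, 4729 and 4083 in DMSO and 7498, 6220 and 6299 in Chelator. The groups were well apart, with the lowest Chelator library above the highest DMSO library. The log2 fold change was 0.62 (SE 0.0971, adjusted P = 1.75e-09), a 1.54-fold rise. It was 0.40 without the length offset and 0.94 after per-library trends against GC content and length had been subtracted, and passed in both. SLC3A2, which pairs with SLC7A11 to form the cystine transporter, rose alongside it with a log2 fold change of 0.74 (SE 0.0747). The ratio of SLC7A11 TPM to SLC3A2 TPM was 0.0591 ± 0.0088 in DMSO and 0.0541 ± 0.0062 in Chelator (SD, n = 3), and the groups overlapped.

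GPX4 (ENSG00000167468.20, chromosome 19, 1103982 to 1106791, plus strand) was the most abundant member per length. Its normalized counts were 11956, 9987 and 11185 in DMSO and 14285, 15015 and 14425 in Chelator. Each Chelator library exceeded each DMSO library, and the 3 Chelator libraries lay close together. The log2 fold change was 0.40 (SE 0.0809, adjusted P = 4.67e-06). After the same subtraction of trends it was 0.13 and did not pass (adjusted P = 0.071), so the size of the rise in GPX4 depended on this choice.

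GPX4 carries selenocysteine in its active site, which is encoded by an in-frame TGA that would otherwise end translation. In GPX4-210, the transcript with the largest share, this is codon 46 of 170. It is shown here with 7 codons on either side, because reading through it needs the selenoprotein machinery described next. The segment is from the coding sequence in GENCODE release 44 (GRCh38, chr19:1105382-1105426, plus strand), with the codon in capitals.
GPX4-210: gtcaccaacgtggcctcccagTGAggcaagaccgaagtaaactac

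The genes that make selenoproteins did not follow GPX4 upward. Of 9 genes in this list, 4 fell at the threshold, none rose, and the median log2 fold change was -0.23. PSTK, the kinase that prepares the selenocysteine transfer RNA, had normalized counts of 981, 873 and 835 in DMSO and 446, 522 and 427 in Chelator, a log2 fold change of -0.95 (SE 0.135). This was about a 1.93-fold decrease, with no overlap, but on protein-coding transcripts alone the value was -0.19 and did not pass (adjusted P = 0.526). The value of PSTK was past the size limit without Chelator replicate 2 (-1.04), after subtraction of the GC and length trends (-1.08) and after centring on the mean log2 change (-1.01). EEFSEC, the elongation factor for selenocysteine, fell by 0.49 on the log2 scale. SEPHS2, which makes the selenium donor, fell by 0.41, and SECISBP2, which recognizes selenoprotein messages, fell by 0.26. After that subtraction of trends, 2 genes of this list rose and 7 fell.

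Of 13 genes of cystine import and glutathione metabolism, 5 rose and 3 fell. The 3 called genes all rose. CHAC1, which degrades glutathione, had normalized counts of 337, 343 and 296 in DMSO and 1355, 1400 and 1469 in Chelator, a log2 fold change of 2.11 (SE 0.119). CTH, which makes cysteine from cystathionine, averaged 1071 ± 110 normalized counts in DMSO and 4251 ± 193 in Chelator (SD, n = 3), and its log2 fold change was 1.99. GGT7, of the gamma-glutamyltransferase family, rose with a log2 fold change of 1.28. These were larger changes than that of SLC7A11 in the same libraries. Genes of glutathione synthesis and reduction themselves moved less: GCLM fell by 0.38 and GSR fell by 0.27 on the log2 scale, GSS rose with 0.22, and GCLC, at 0.20 (adjusted P = 0.678), did not pass. CHAC2, a relative of CHAC1, fell by 0.79.

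Outside the glutathione route, the quinone reductases differed. AIFM2 (ENSG00000042286.15, chromosome 10, 70098223 to 70132934, minus strand) had normalized counts of 3489, 3155 and 3439 in DMSO and 3196, 3109 and 3058 in Chelator. The groups overlapped, and AIFM2 was the single member that did not pass. Its log2 fold change was -0.11, with a 95% interval of -0.26 to 0.05 and an adjusted P of 0.314. After subtraction of the GC and length trends it was -0.25 and passed (adjusted P = 0.0011). AIFM2 needs coenzyme Q as its substrate. Of 13 genes of coenzyme Q synthesis, transport and the related reductase NQO1, 4 rose and 5 fell, with a median log2 fold change of 0.05. The methyltransferase COQ5 rose with 0.68 (SE 0.106) and NQO1 with 0.38, whereas PDSS1, which starts the isoprenoid tail, fell by 0.62 and COQ3 fell by 0.53.

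VKORC1L1 (ENSG00000196715.7, chromosome 7, 65873074 to 65959563, plus strand) is the relative of VKORC1, and both encode vitamin K epoxide reductases. Its normalized counts were 12744, 12124 and 14155 in DMSO and 7831, 7127 and 7305 in Chelator. The groups were far apart, and the log2 fold change was -0.81 (SE 0.0814, adjusted P = 9.16e-22), a 1.75-fold decrease. VKORC1, the classical target of warfarin, had a log2 fold change of -0.34 (SE 0.0988). The ratio of VKORC1L1 TPM to VKORC1 TPM was 0.602 ± 0.0516 in DMSO and 0.432 ± 0.00829 in Chelator (SD, n = 3), with no overlap. In the vitamin K list of 4 genes reported here, VKORC1 fell and GAS6 rose. GAS6, a vitamin K-dependent ligand, had normalized counts of 1017, 962 and 925 in DMSO and 1214, 1412 and 1324 in Chelator, a log2 fold change of 0.44 (SE 0.107). After subtraction of the GC and length trends GAS6 was at 0.20 and did not pass (adjusted P = 0.125).

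GCH1 (ENSG00000131979.20, chromosome 14, 54842008 to 54902826, minus strand) is the rate-limiting enzyme of tetrahydrobiopterin synthesis. Its normalized counts were 964, 778 and 846 in DMSO and 1200, 1217 and 1160 in Chelator. All 3 Chelator libraries were above the DMSO libraries. The log2 fold change was 0.47 (SE 0.115, adjusted P = 2.26e-04). The other enzymes of this pathway did not share one direction, with 2 of 7 rising and 3 falling. SPR, the last step of synthesis, fell by 0.52 on the log2 scale and QDPR, which recycles the cofactor, fell by 0.60. PCBD1, which also acts in recycling, rose with 0.63 (SE 0.0901). The ratio of GCH1 TPM to SPR TPM was 0.168, 0.137 and 0.146 in DMSO and 0.3, 0.334 and 0.268 in Chelator. The first enzyme of the pathway was therefore higher relative to the last in each Chelator library.

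DHODH (ENSG00000102967.12, chromosome 16, 72008588 to 72027664, plus strand) showed the largest change among the members. It had normalized counts of 2266, 2321 and 2290 in DMSO and 1089, 1042 and 1200 in Chelator. The 3 DMSO libraries were nearly equal and every Chelator library was far below them. The log2 fold change was -1.05 (SE 0.0934, adjusted P = 1.77e-27), a 2.07-fold decrease, and its 95% interval, -1.23 to -0.86, included the size limit of -1. Of 10341 genes whose normalized counts averaged 500 or more, 140 had a lower log2 fold change, or 1.35%. The corresponding share was 3.96% for VKORC1L1, whereas 9.58% of these genes had a higher value than SLC7A11.

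The rest of pyrimidine synthesis fell with DHODH. CAD, which carries the first steps, UMPS, which carries the last, and CTPS1 and CTPS2, which make CTP, all fell, making 4 of 4 in this list with a median log2 fold change of -0.65. CAD had normalized counts of 29640, 31854 and 30154 in DMSO and 16608, 16448 and 17622 in Chelator, a log2 fold change of -0.85 (SE 0.0665). The values were -0.66 for UMPS, -0.65 for CTPS2 and -0.32 for CTPS1. No gene of this list was called. Other mitochondrial enzymes that pass electrons to coenzyme Q did not move together, since of 5 genes 2 rose and 1 fell. GPD2 fell by 0.59 (SE 0.104) and ETFDH rose with 0.36. PRODH also rose, from 4.7 ± 3.98 to 24.4 ± 9.74 normalized counts (SD, n = 3), and was called at this low level.

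**Figure D2:**
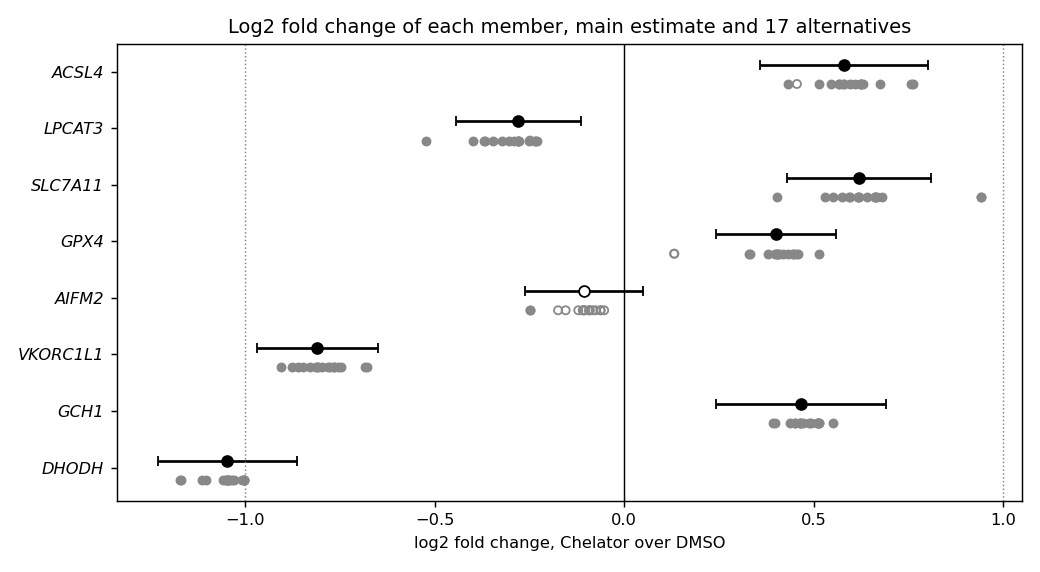
Log2 fold change of each member (horizontal axis), with the main estimate and its 95% interval in black and the 17 alternative analyses as grey points below it. Open points had an adjusted P of 0.05 or more and dotted lines mark the size limit of 1 either way. All alternatives kept the sign of each member, from 0.40 to 0.94 for SLC7A11 and from -0.91 to -0.68 for VKORC1L1, and open points occurred for GPX4, ACSL4, LPCAT3 and AIFM2.

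Length-normalized levels placed the members over a wide range. In DMSO, GPX4 was at 229 ± 6.26 TPM, VKORC1L1 at 40.1 ± 2.74, LPCAT3 at 27.2 ± 2.0 and ACSL4 at 21.9 ± 3.37 TPM (SD, n = 3). AIFM2 followed at 14.4 ± 0.59, DHODH at 14.2 ± 1.55, SLC7A11 at 8.55 ± 1.52 and GCH1 at 4.64 ± 0.267 TPM. Neighbours overlapped between LPCAT3 and ACSL4 and between AIFM2 and DHODH, and were apart elsewhere in this order. In Chelator, ACSL4 came next after GPX4 at 33.2 ± 4.92 TPM, above VKORC1L1 at 23.4 ± 0.51 and LPCAT3 at 22.9 ± 1.27, which overlapped each other. DHODH was at 7.0 ± 0.496 TPM, below SLC7A11 at 13.3 ± 1.07, which overlapped AIFM2 at 13.7 ± 0.316. GPX4 stayed at the top with 309 ± 17.1 TPM and GCH1 at the bottom with 6.57 ± 0.285 TPM, where it overlapped DHODH. The ratio of GPX4 TPM to DHODH TPM went from 16.2 ± 1.65 in DMSO to 44.3 ± 4.02 in Chelator. DHODH TPM rested in large part on the short transcript DHODH-208, at 7.24 TPM in DMSO and 3.29 TPM in Chelator. The ratio of GPX4 TPM to ACSL4 TPM, the defence over the driver, was 10.6 ± 1.5 in DMSO and 9.49 ± 1.76 in Chelator (SD, n = 3), and the groups overlapped.

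**Figure D3:**
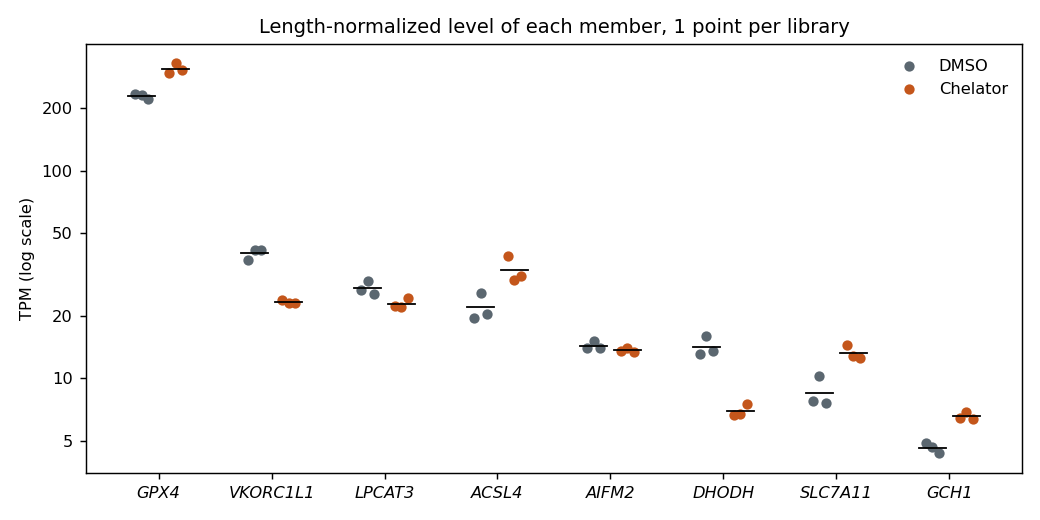
TPM of each member on a log axis, ordered by the mean in DMSO, with 1 point per library and a black line at the group mean. GPX4 ranged from 222 to 328 TPM, and DHODH averaged 14.2 TPM in DMSO and 7.0 TPM in Chelator.

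The members had 2 to 18 annotated transcripts each, and no change of transcript usage was called for any of them. The test was edgeR's diffSpliceDGE with a Simes adjustment per gene, and a call also needed a change of more than 5 percentage points in the share of a transcript. Of 11938 genes tested in this way, 9.22% were called. For LPCAT3 the adjusted P was 0.229, although its shares did not overlap between the groups. LPCAT3-201, which holds the full coding sequence, had 73.9, 74.6 and 85.0% of the gene's TPM in DMSO and 60.7, 66.6 and 62.4% in Chelator. LPCAT3-211, annotated as a target of nonsense-mediated decay, had 12.3, 4.15 and 0% in DMSO and 25.4, 18.0 and 20.2% in Chelator. The DMSO libraries thus differed widely among themselves. Without DMSO replicate 1 the gene passed (adjusted P = 0.0324), and with limma's diffSplice it passed as well (adjusted P = 0.0013). The overlap with EMG1 also touches these shares, since 27.6% of the 31-base sequences of LPCAT3-211 occur in EMG1 on the reverse strand.

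GPX4 is annotated with 11 protein-coding transcripts of several coding lengths, and those with the largest shares are given here. GPX4-210, with 170 codons, had 76.3, 70.5 and 75.1% of TPM in DMSO and 80.1, 80.4 and 78.2% in Chelator. GPX4-201, which starts further upstream and has 197 codons, had 14.9, 19.9 and 16.4% in DMSO and 12.6, 11.3 and 13.6% in Chelator. The N-terminal stretch that GPX4-201 has beyond GPX4-210 is known as the mitochondrial targeting signal. In TPM, GPX4-201 was at 39.0 in DMSO and 38.6 in Chelator, whereas GPX4-210 went from 169 to 246. These transcripts differ only in the first exon, which starts at 1103994 in GPX4-201 and at 1104052 in GPX4-210. The split between them rests on that short stretch. The part of the differing fragment lengths in this split was not tested. The gene did not pass (adjusted P of 1.0 with edgeR) but was called with limma's diffSplice (adjusted P = 0.0434).

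In VKORC1L1 the transcript VKORC1L1-203 had 67.1, 70.5 and 60.6% of TPM in DMSO and 47.5, 58.4 and 53.3% in Chelator, and VKORC1L1-202 had 20.9 ± 2.63% and 26.4 ± 1.71% (SD, n = 3). VKORC1L1-204 had 11.3 ± 3.34% and 16.3 ± 1.43%, with overlap. The gene did not pass (adjusted P = 0.479). In SLC7A11 the decay-annotated SLC7A11-202 had 3.01 ± 2.28% in DMSO and 8.04 ± 1.52% in Chelator, resting on a mean of 9.67 and 48.7 counts, and the gene did not pass (adjusted P = 0.801). In DHODH, whose total fell, DHODH-208, annotated with only 607 bases, rested on means of 184 counts in DMSO and 110 in Chelator. The full-length DHODH-201 had means of 1762 and 1005 counts. The shares were 38.5 ± 1.96% in DMSO and 38.6 ± 2.54% in Chelator for DHODH-201, and 50.7 ± 3.79% and 46.8 ± 4.74% for DHODH-208. Both overlapped between the groups, as did AIFM2-201 (78.9 ± 1.59% and 78.5 ± 3.26%), AIFM2-204 (19.2 ± 1.58% and 19.2 ± 2.98%) and GCH1-204 (94.7 ± 1.97% and 92.3 ± 6.22%). In ACSL4, ACSL4-213 had 55.7 ± 1.65% in DMSO and 60.1 ± 3.42% in Chelator, and ACSL4-202 had 21.5 ± 4.32% and 20.5 ± 1.62%, both with overlap. ACSL4-212 had 16.8, 10.3 and 9.18% in DMSO and 8.37, 8.85 and 8.07% in Chelator, so its groups did not overlap, with DMSO replicate 1 the highest. The usage test of ACSL4 did not pass (adjusted P of 1.0).

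**Figure D4:**
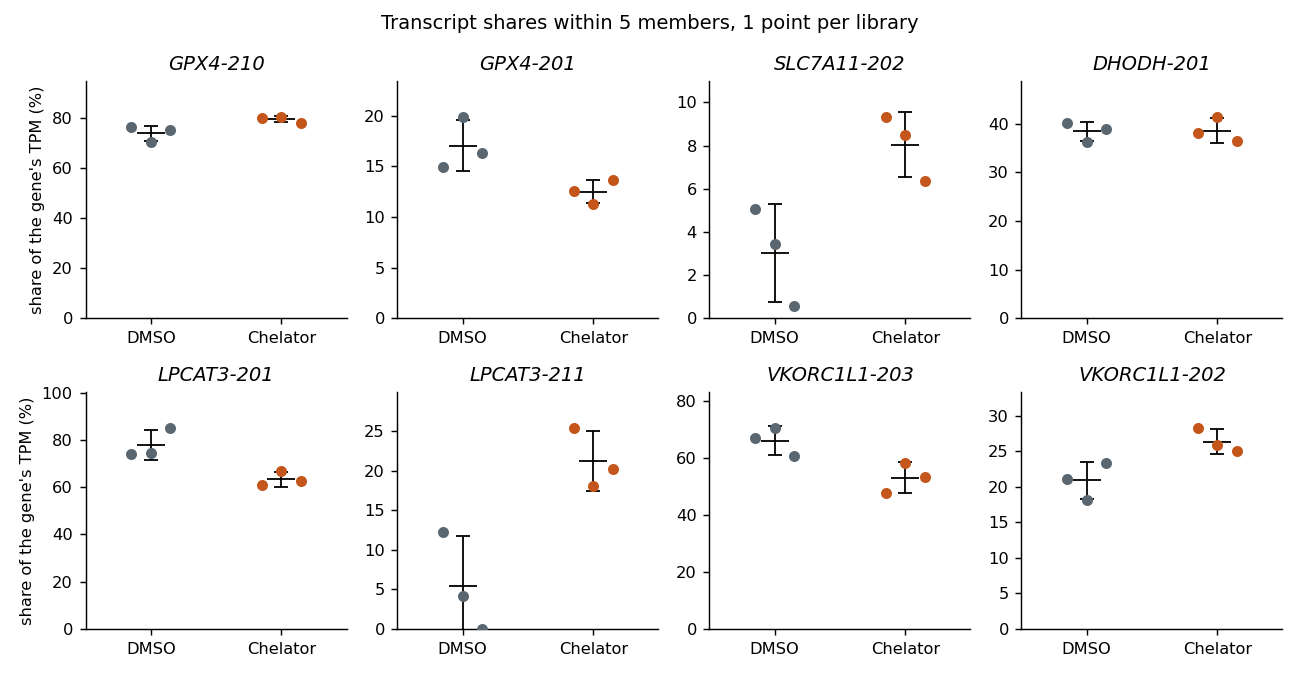
Share of the gene's TPM in percent (vertical axis, starting at 0) for 8 transcripts of 5 members, with 1 point per library and the mean and SD in black. LPCAT3-211 was at 0 to 12.3% in DMSO and 18.0 to 25.4% in Chelator, and DHODH-201 overlapped between the groups.

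Several regulators known to act on these genes were called. Of 8 transcription regulators, 4 rose and 3 fell, with 3 called, all higher. ATF4, which drives SLC7A11 and CHAC1 in amino acid shortage, had normalized counts of 14818, 12869 and 13194 in DMSO and 37060, 38107 and 38895 in Chelator, a log2 fold change of 1.48 (SE 0.0744). DDIT3 (CHOP) rose with 2.32 and ATF3, known as a repressor of SLC7A11, with 2.57. NFE2L2, which encodes the antioxidant regulator NRF2, rose with 0.45, and its inhibitor KEAP1 fell by 0.28.

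Because these regulators bind known DNA elements, the 250 bases upstream of each RefSeq start (GRCh38.p14) were searched on both strands for 4 motifs. The motifs were the E-box CACGTG, the antioxidant response element core TGACNNNGC, the C/EBP-ATF element TGATGNAA and the cyclic AMP response element core TGACGT. The antioxidant and the cyclic AMP core can overlap, which none of the matches in the members did. Of the 8 members, 6 had an upstream sequence in the table used, and SLC7A11 and GCH1, which both rose, were not searched. A match is a description of letters only. The 5 matches are shown in the 30 bases around them, in the direction of the gene and with the motif in capitals.
GPX4, cyclic AMP core, chr19:1103883-1103912, plus strand: cctcccattggcTGACGTcggcgcgagcgc
ACSL4, cyclic AMP core, chrX:109733431-109733460, minus strand: cgccttttcgacTGACGTcccgggcgagcg
AIFM2, antioxidant core read on the reverse strand, chr10:70132828-70132857, minus strand: cagcacgagtGCTGAGTCAcgccccgcccg
VKORC1L1, antioxidant core read on the reverse strand, chr7:65872854-65872883, plus strand: ccgagggttcGCCCAGTCAcccacagtggc
DHODH, E-box, chr16:72008573-72008602, plus strand: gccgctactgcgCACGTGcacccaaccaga

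The cyclic AMP core lay 162 bases upstream of the GPX4 start and 191 bases upstream of the ACSL4 start, both genes that rose. It occurred in 7.1% of the 35116 upstream sequences of the table, and in 8.8% of the 19560 that belong to genes with an adjusted P-value. The antioxidant core lay 22 bases upstream in AIFM2 and 210 bases upstream in VKORC1L1, of which AIFM2 did not pass and VKORC1L1 fell. This core occurred in 10.9% of all sequences and in 11.6% of those of genes with an adjusted P-value. The E-box, the element of MYC and related factors, lay 159 bases upstream of DHODH and occurred in 6.3% and 7.8%, in the same order. None of the 6 members searched held TGATGNAA, which occurred in 3.1% of all sequences and in 1.9% of those of genes with an adjusted P-value. LPCAT3 held none of the 4 motifs.

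Of 12 genes of monounsaturated lipids, 7-dehydrocholesterol and membrane repair, 6 rose and 2 fell, with a median log2 fold change of 0.46. PLA2G6, a phospholipase that removes oxidized acyl chains, had normalized counts of 270, 201 and 168 in DMSO and 990, 966 and 1300 in Chelator, a log2 fold change of 2.35 (SE 0.185). SC5D, which makes 7-dehydrocholesterol, rose with 1.27, but with 0.71 without the length offset, below the size limit. DHCR7, which consumes 7-dehydrocholesterol, rose with 0.79, so the maker of this protective sterol and its consumer were both higher. ACSL3, which activates monounsaturated fatty acids, rose with 0.63, in the same direction as ACSL4.

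Of 10 iron supply genes, 9 were tested, 2 rose and 3 fell. TFRC, the transferrin receptor, had normalized counts of 43070, 40145 and 54229 in DMSO and 326280, 335339 and 355170 in Chelator, a log2 fold change of 2.89 (SE 0.102). STEAP3, the reductase that acts on iron released in endosomes, averaged 8928 ± 479 normalized counts in DMSO and 3024 ± 244 in Chelator (SD, n = 3), and its log2 fold change was -1.56. The heme oxygenase HMOX1 had a total of 2 counts over the 6 libraries and was not tested. Of 20 relatives of the members by sequence family, 18 were tested, 8 rose and 3 fell, with a median of 0.38. ACSL6 rose with a log2 fold change of 0.82 (SE 0.167), which was 0.53 without the length offset and 1.41 on protein-coding transcripts alone. The 2 called relatives, ACSL5 with 2.35 and GPX8 with 2.36, were at low levels, with means of 23.9 and 13.9 normalized counts in DMSO. LPCAT1 fell by 0.65 and LPCAT2 rose with 0.74, and the amino acid transporter SLC7A8 rose with 0.69 while SLC7A6 fell by 0.49.

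**Figure D5:**
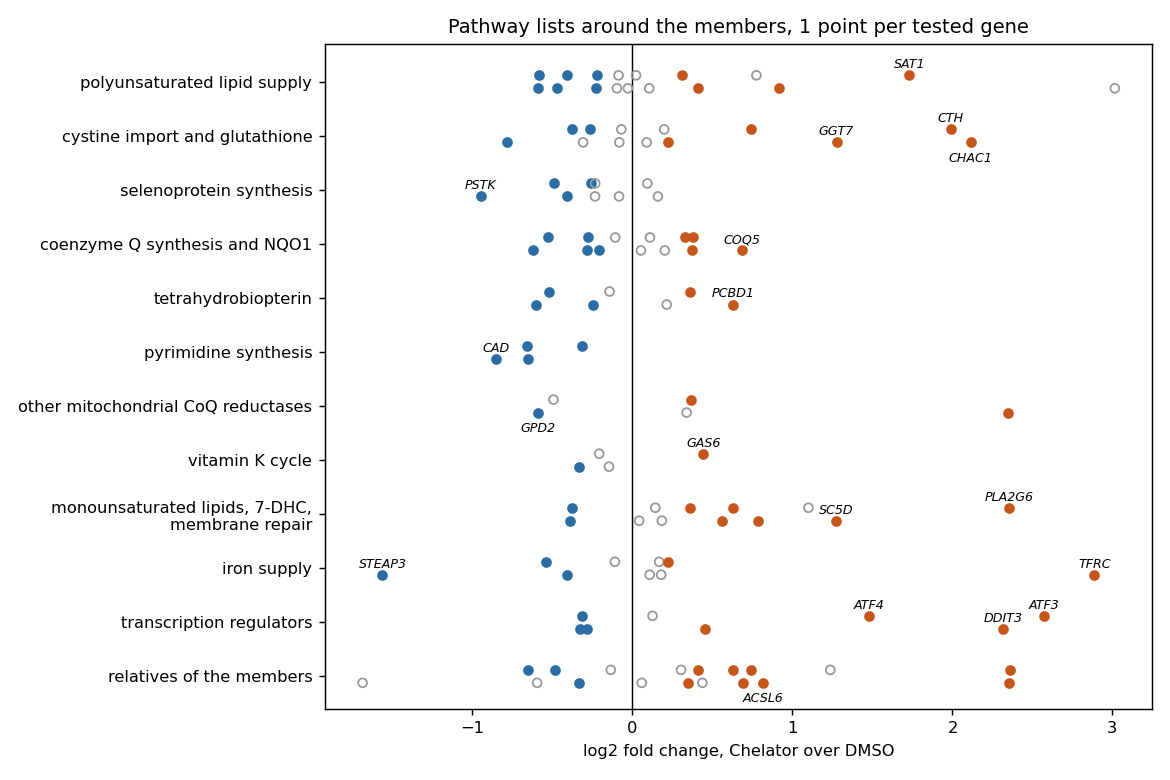
Log2 fold change (horizontal axis) of every tested gene in 12 lists around the members, with filled points for an adjusted P under 0.05 (orange higher, blue lower) and open grey points for the rest, and with labels on the genes chosen by rule. All 4 genes of pyrimidine synthesis lay below 0, and no gene of selenoprotein synthesis that passed lay above it.

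For each member, the genes whose pattern over the 6 libraries was most like it were listed among the 10340 other genes whose normalized counts averaged 500 or more. Likeness was the root mean square difference of log2 normalized counts, each centred on its own mean. The closest gene to DHODH was TBL3, a nucleolar ribosome assembly factor, at 0.0143, with a log2 fold change of -1.05, and the next was the noncoding ENSG00000272468 at 0.0459. The closest to VKORC1L1 was PALM3 at 0.018 and then ZNF512 at 0.0214. GPX4 was closest to TNNT1 at 0.0175 and UBL7 at 0.024, and LPCAT3 to SLC35B1 at 0.0184 and DDX54 at 0.0232. AIFM2 was closest to ZMYND11 at 0.0153 and BAK1 at 0.016, and GCH1 to PPIA at 0.0224 and SEMA3F at 0.0227. SLC7A11 was nearest to TMEM231 at 0.0329 and MYH9 at 0.0449, and ACSL4 to SDC4 at 0.048 and SCG3 at 0.052.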

How the data were processed

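Transcript-level estimated counts (NumReads) and TPM were deposited for each of the 6 libraries. Per the labels the authors used Salmon 1.10.2 and build hg38; the annotation and the strand setting were not given in the sources used here. Counts and TPM were summed per gene through GENCODE release 44, to which 0.139 to 0.15% of the counts per library could not be matched. Summed counts were rounded and genes with a total above 10 were tested with DESeq2 1.42.0 (R 4.3.3; Wald test, median-ratio size factors, average effective length as offset, Benjamini-Hochberg over all genes). The study's methods state this test and the limits of 0.05 and 1. Transcript usage was tested with edgeR 4.0.16 (limma 3.58.1 as the alternative). Both steps were also run on simulated data, the gene test without its length offset, and the outcomes are not given here. The replicate numbers showed no clear pairing: same-numbered libraries correlated at -0.0747, 0.13 and 0.101 over 13492 genes. Differently numbered libraries correlated at -0.162 to 0.0821.

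Named genes were all 8 members and, from each pathway list, the called genes whose normalized counts averaged 100 or more, up to the 3 largest changes, or else the gene with the largest passing change. Further genes of a list were named after their values were seen. Transcripts with at least 10% of the TPM of a gene were named, and SLC7A11-202 was added after its values were seen. The members and lists were chosen with earlier results of these data known. The 31-base overlap, the ratios and the motif search are descriptions. A few genes of the pathway lists are not reported here and are left out of the counts.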

Additional observations from a re-analysis of the deposited data

How the results depend on the processing

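All 8 members kept their direction in all 17 alternatives, and DHODH alone was called in each. The number of members past the threshold was 7 in every fit that left out a library. Removing the trends with GC content and length took GPX4 to 0.13 (adjusted P = 0.071, or 0.0973 in the version with the replicate block, which was added after the data were seen) and AIFM2 to -0.25 (adjusted P = 0.0011 or 0.00992). ACSL4 was at 0.46 without the length offset (adjusted P = 0.0865) and LPCAT3 at -0.25 with limma on log2(TPM + 0.1) (adjusted P = 0.0515). The causes were not tested. The replicate block without that correction changed no member's call, with log2 fold changes of -1.05 for DHODH and 0.40 for GPX4. The numbers showed no clear pairing of the libraries. Counts of list genes past the threshold moved by more than 1.5 times as follows. After the same removal of trends, the genes that fell were 6 for cystine and glutathione (5 with the block) and 7 for selenoprotein synthesis, where 2 rose with or without the block, and the vitamin K genes were 0 higher and 2 lower in both. Without the length offset 2 vitamin K genes fell and 1 selenoprotein synthesis gene rose, the latter also on protein-coding transcripts alone. For the other coenzyme Q reductases, 1 rose without the offset, on protein-coding transcripts and with the GC correction and block, and 2 fell without the offset and with that correction and block. The coenzyme Q genes that fell were 3 with edgeR's quasi-likelihood test and with limma, and limma left 1 tetrahydrobiopterin gene higher and 1 monounsaturated lipid gene lower. The iron supply genes that rose were 4 with TMM and 1 after centring on the mean log2 change, which put 3 vitamin K genes lower. Leaving out each library gave 3 to 5 coenzyme Q genes lower (3 without DMSO replicate 3), 1 to 2 other reductases higher (1 without DMSO replicate 1 or 3 or Chelator replicate 2 or 3) and 1 to 2 lower (2 without Chelator replicate 3), 1 to 2 monounsaturated lipid genes lower (1 without Chelator replicate 2) 1 to 2 vitamin K genes lower (2 without DMSO replicate 2 or Chelator replicate 1) and 1 to 3 iron supply genes higher (1 without DMSO replicate 2 or 3 or Chelator replicate 1). Members called for transcript usage were 2 with limma's diffSplice and 0 to 1 when a library was left out (1, LPCAT3, without DMSO replicate 1). The places of AIFM2 and DHODH by TPM in DMSO were 5 to 6 and exchanged without DMSO replicate 1 or 3. No other count or place moved by that much.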
